A study of Caenorhabditis elegans with 2 samples.

Results

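From the 19973 protein-coding genes on the nuclear chromosomes of Caenorhabditis elegans, 10 genes of ubiquitin, ubiquitin-like proteins, enzymes that attach them and the segregase CDC-48 were examined in peak lists for R02D3.7 tagged with eGFP. The 10 genes were ubq-1, ubq-2, ubl-1, ned-8, smo-1, uba-1, ubc-1, rfp-1, cdc-48.1 and cdc-48.2. They were selected on their function and on earlier values from the same peak lists, so their signals, ranks and positions are given as a description and carry no test. The data are ChIP-seq peak lists from whole L2 larvae, with the sexes pooled, in 1 group with 2 biological replicates. All animals carried the unc-119(ed3) mutation on chromosome III and the transgene wgIs218, which supplies the tagged protein (strain OP218). Control reads were not analysed here, and what signal they would give at the same places was not tested.

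Ubiquitin is a small protein that is joined to other proteins by an activating enzyme (E1), a conjugating enzyme (E2) and a ligase (E3), and chains of it mark proteins for destruction by the proteasome. Eukaryotes make ubiquitin as precursors that are cut after translation: head-to-tail chains in polyubiquitin genes, and single copies fused to a ribosomal protein. CDC-48 (p97 in mammals) is a hexameric ATPase that pulls ubiquitin-tagged proteins out of complexes and membranes. In the translated coding sequences, ubq-1 encoded 11 ubiquitin units of 76 residues, of which 10, the first included, were identical to the first. The first 76 residues of ubq-2 were identical to that unit and were followed by 52 residues of ribosomal protein. In ubl-1, a fusion of 163 residues with a ubiquitin-like front part, 35 of the 76 unit residues (46.1%) were matched. NED-8, the modifier of cullins, matched 46 of 76 (60.5%), and SMO-1, the SUMO protein, matched 13 of 76 (17.1%).

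The window of a gene covers 1000 bp before and 200 bp after each of its annotated 5′ ends. Annotated 5′ ends of worm genes are often sites of trans-splicing, so they need not be where transcription starts. Binding was read from 3 lists of 30000 candidate regions each (replicate 1, replicate 2, and the reads of both joined) and from the 542 regions that the deposited IDR list holds (irreproducible discovery rate, a filter on agreement in rank between replicates). Those 542 were the joined regions of highest signal, and 528 of them overlapped a region in both replicates. Their ranks in the 2 replicates can differ widely, as some below do. Each region has a summit and a signal value that the authors' peak caller gave, on an unstated scale. Read depth is unknown. Signals were set beside each other within a list, and between lists only as ranks, where rank 1 is the highest signal.

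Of the 10 genes, 4 had an IDR summit in the window, against 3.47% of all protein-coding genes (694 of 19973). They were ubq-2, ubl-1, rfp-1 and cdc-48.1. The sequence at these 4 summits, and at the strongest region of ubq-1 for contrast, is shown because the genes are compared on it below. Each line gives the joined summit with 50 bases on either side, 5′ to 3′ in the direction of the gene, read from the RefSeq copy of WBcel235 (the ce11 sequence). Capitals mark the word CGTAAATC and every word of 8 bases that the windows of 2 of the 4 genes shared on either strand.
ubq-2: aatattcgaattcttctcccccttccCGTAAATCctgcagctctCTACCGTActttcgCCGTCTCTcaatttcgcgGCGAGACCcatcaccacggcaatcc
ubl-1: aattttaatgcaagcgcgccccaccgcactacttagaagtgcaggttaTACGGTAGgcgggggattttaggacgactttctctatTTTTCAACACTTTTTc
rfp-1: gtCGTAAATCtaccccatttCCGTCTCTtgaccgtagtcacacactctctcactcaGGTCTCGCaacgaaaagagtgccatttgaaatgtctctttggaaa
cdc-48.1: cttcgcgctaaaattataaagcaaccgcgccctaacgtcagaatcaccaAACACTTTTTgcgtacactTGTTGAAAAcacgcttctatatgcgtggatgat
ubq-1: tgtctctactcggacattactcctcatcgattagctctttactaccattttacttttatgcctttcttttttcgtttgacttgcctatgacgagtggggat

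These windows lay at chrIII:12978957-12979057 for ubq-2 (minus strand), chrIII:3068076-3068176 for ubl-1 (plus), chrIII:8358351-8358451 for rfp-1 (plus), chrII:10563527-10563627 for cdc-48.1 (minus) and chrIII:5940746-5940846 for ubq-1 (plus). The first 4 windows overlapped no annotated exon and no gene body. The window of ubq-1 lay inside its gene, in the first intron of the longer transcript and upstream of the start of the shorter one.

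The ribosomal fusion ubq-2 (WBGene00006728, 12977963 to 12978523 on chromosome III, minus strand) encodes ubiquitin joined to a protein of the large ribosomal subunit. Its peak had a signal of 839 in replicate 1, 362 in replicate 2 and 1199 in the joined list. It ranked 3 in each of the 3 lists, and the gene was placed 4 of 19973 by its strongest joined region. The region ran from 12978828 to 12979166 on chromosome III (339 bp), with the summit 484 bp upstream of the 5′ end of ubq-2 in the joined list and in replicate 1, and 498 bp upstream in replicate 2. The same summit lay closer to frg-1, a divergently transcribed gene that encodes a homolog of FRG1, at 155 bp upstream. The 5′ ends of ubq-2 and frg-1 are 639 bp apart, and which of them the peak belongs to cannot be told apart from its position.

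The fusion ubl-1 (WBGene00006725, 3068310 to 3069210 on chromosome III, plus strand) joins a ubiquitin-like protein to a protein of the small ribosomal subunit. Its signal was 30.2 in replicate 1, 14.98 in replicate 2 and 44.9 in the joined list, at ranks 512, 509 and 447. The peak (3067961 to 3068290 on chromosome III) is thus in the lower part of the IDR set, whose last region had a signal of 39.12 and whose first excluded neighbour had 39.10. The summit lay 184 bp upstream of the 5′ end in the joined list, 207 bp in replicate 1 and 254 bp in replicate 2. No other protein-coding gene had this summit in its window, but the snoRNA genes H06I04.9 and H06I04.8, which lie within ubl-1, did, at 360 and 680 bp upstream.

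Polyubiquitin ubq-1 (WBGene00006727, 5940254 to 5943841 on chromosome III, plus strand) had no IDR summit. Its strongest region had a signal of 12.3 in replicate 1 (rank 8047), 6.60 in replicate 2 (rank 15213) and 20.4 in the joined list (rank 4216). The summit was 190 bp upstream of the nearer of the 5′ ends in the joined list and in replicate 1. In replicate 2 it was 213 bp upstream, so both replicates placed a region there. Candidate regions are common: 42.6% of protein-coding genes had one in the window in replicate 1 and 41.9% in replicate 2. A second joined region in the window had a signal of 11.96 at rank 27777. Beyond the window, 1319 bp upstream, a region of signal 23.9 (rank 2023) was higher than either, with a signal of 22.2 and rank 851 in replicate 1. In replicate 2 the strongest region beyond the window peaked 1573 bp upstream, with a signal of 5.57.

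Set side by side within each list, the signal of ubq-2 was 58.8 times that of ubq-1 in the joined list, 68.2 times in replicate 1 and 54.9 times in replicate 2. The signal of ubl-1 was 2.20 times that of ubq-1 in the joined list, 2.46 times in replicate 1 and 2.27 times in replicate 2. On the log2 scale these are differences of 5.88, 6.09 and 5.78 for ubq-2 and of 1.14, 1.30 and 1.18 for ubl-1. The order ubq-2, ubl-1, ubq-1 held in both replicates. The fusions differed more from each other than ubl-1 did from ubq-1 in every list. With 2 replicates of 1 group there is no test of these ratios. Those of ubq-2 count the whole peak for ubq-2, although its summit lies closer to frg-1. They describe the window and not the gene alone. When the window was extended to 2000 bp upstream, which brings in the stronger upstream region of ubq-1 in the joined list and in replicate 1, the order held but the ratios were smaller there. The signal of ubq-2 was then 50.1 times that of ubq-1 in the joined list, 37.9 times in replicate 1 and 54.9 times in replicate 2. That of ubl-1 was 1.88 times that of ubq-1 in the joined list, 1.36 times in replicate 1 and 2.27 times in replicate 2.

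**Figure D1:**
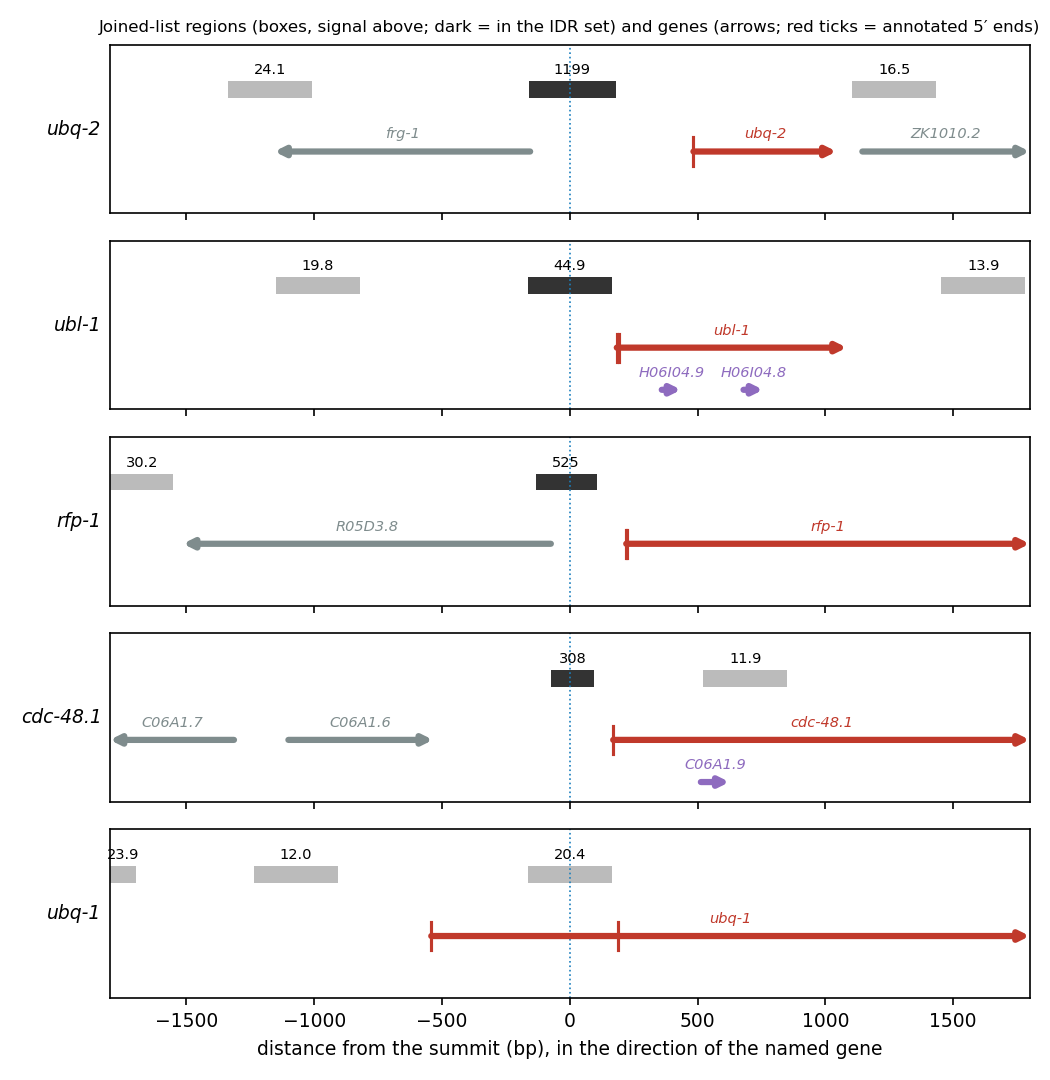
Regions of the joined list and annotated genes around the strongest window region of 5 genes, plotted by distance in bp from its summit, with each gene running left to right. The boxes at 1199, 44.9, 525 and 308 are in the IDR set, and the box at 20.4 over ubq-1 is not; frg-1 and R05D3.8 start inside the peak regions at ubq-2 and rfp-1, with the summit between the paired starts.

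Both fusions also encode ribosomal proteins. Of 81 genes with rpl, rps or rla symbols, 44 (54.3%) had an IDR summit, beside 3.47% of all protein-coding genes. Their median signal was 86.9, beside 76.2 over all 694 genes with an IDR summit. The signal of ubq-2 exceeded that of 43 of these 44 and was below that of rpl-20 (1374). The signal of ubl-1 exceeded 4 of the 44 and lay between rps-26 (50.2) and rpl-43 (42.6).

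By signal in both replicates, ubq-2 was most like 3 other of the strongest promoter peaks. Likeness was the Euclidean distance in log2 signal over the 2 replicates, among the other IDR promoter peaks (443 for ubq-2 and for ubl-1, 444 for ubq-1). The nearest was the peak at M03C11.3 and hat-1, a histone acetyltransferase gene (distance 0.11), then that at Y54F10AM.15, ndua-8 and rbc-2 (0.21) and that at rpl-20 and Y17G9B.5 (0.25). For ubl-1 the nearest were the peaks at F56G4.6 and wbp-4 (0.045), at unc-76 (0.048) and at F25H2.4 (0.055). For ubq-1 the nearest were the peaks at erh-1, lpd-9 and mics-1 (1.14), at F40F11.3 and mig-38 (1.17) and at eif-2Bgamma (1.28). Every IDR peak has a joined signal of 39.12 or more, against 20.4 at ubq-1, so these larger distances follow from the set compared. With 2 values per peak, this is a measure of height and not of pattern.

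**Figure D2:**
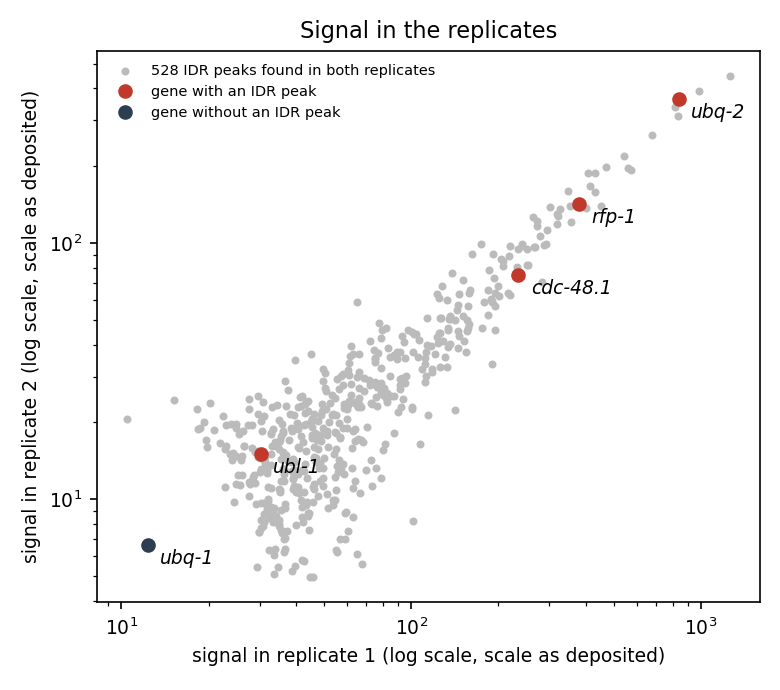
Signal in replicate 1 (x) against replicate 2 (y), both on log axes and on the deposited scale, for 528 IDR peaks (grey) and for the genes examined whose window holds the same region in both replicates (red with, dark without an IDR peak). The peak of ubq-2 sits among the highest at 839 and 362, ubl-1 sits in the lower cloud at 30.2 and 14.98, and ubq-1 stands near the low end of both axes at 12.3 and 6.60.

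The other modifiers, NED-8 and SMO-1, are encoded on chromosome I, by ned-8 (WBGene00003587, 10373373 to 10373862) and smo-1 (WBGene00004888, 1340678 to 1341265). Neither had an IDR summit. The window of ned-8 held 1 joined region, of signal 13.2 and rank 21675, and none in either replicate. That of smo-1 held a region of signal 15.3 (rank 13762) in the joined list and of 13.2 (rank 6221) in replicate 1, 302 bp upstream, and none in replicate 2. Regions of this height are common, since 43% of protein-coding genes (8579) had a joined candidate summit in the window, with a median strongest signal of 16.2. The 9 examined genes with such a summit had a median of 20.4.

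The enzymes of the cascade differed from each other. The E1 gene uba-1 (WBGene00006699, 9989671 to 9994945 on chromosome IV), which encodes the activating enzyme for ubiquitin, had joined signals of 14.8 and 13.96 at 2 places in its windows, 413 bp upstream and 149 bp downstream of the nearest 5′ ends. Replicate 1 had the downstream region, at 10.5 (rank 14200), and replicate 2 the upstream one, at 6.46 (rank 16094), so the replicates did not place their region together. The E2 gene ubc-1 (WBGene00006701, 4103020 to 4106263 on chromosome IV), whose product is the worm counterpart of yeast Rad6, had a joined signal of 12.6 (rank 24477), none in replicate 1 and 5.54 in replicate 2 (rank 23324).

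The E3 gene rfp-1 (WBGene00007008, 8358622 to 8362543 on chromosome III, plus strand) had one of the highest signals. Its product is the worm counterpart of yeast Bre1, the RING-finger ligase that works with Rad6 to attach ubiquitin to histone H2B. The peak (8358267 to 8358507 on chromosome III, 241 bp) had a signal of 380 in replicate 1, 141 in replicate 2 and 525 in the joined list, at ranks 17, 16 and 17. The summit lay 221 bp upstream of rfp-1 in the joined list and replicate 1 and 237 bp in replicate 2. It was also 74 bp upstream of R05D3.8, a divergent gene annotated as a putative RNA-binding protein, whose 5′ end is 295 bp from that of rfp-1. R05D3.8 is thus the nearer gene, and whether the peak belongs to it or to rfp-1 cannot be told apart from its position. For this E2 and E3 pair, the strongest joined signal was 12.6 in the window of ubc-1 and 525 in that of rfp-1. The latter is the peak shared with R05D3.8.

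The CDC-48 paralogs also stood apart. Their proteins, of 809 and 810 residues, were identical at 720 of 817 aligned positions (88.1%). The gene cdc-48.1 (WBGene00007352, 10560036 to 10563407 on chromosome II, minus strand) had a peak (10563481 to 10563651 on chromosome II, 171 bp) with a signal of 234 in replicate 1, 74.9 in replicate 2 and 308 in the joined list, at ranks 42, 53 and 45. The summit lay 170 bp upstream in the joined list, 182 bp in replicate 1 and 161 bp in replicate 2, and no other protein-coding gene had it in a window. The snoRNA gene C06A1.9, inside cdc-48.1, had it 513 bp upstream. The paralog cdc-48.2 (WBGene00008053, 8138496 to 8141230 on chromosome II, plus strand) had no joined region in its window, where the weakest listed joined region anywhere has a signal of 11.6. Replicate 1 listed one 923 bp upstream (signal 10.4, rank 14571) and replicate 2 none.

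**Figure D3:**
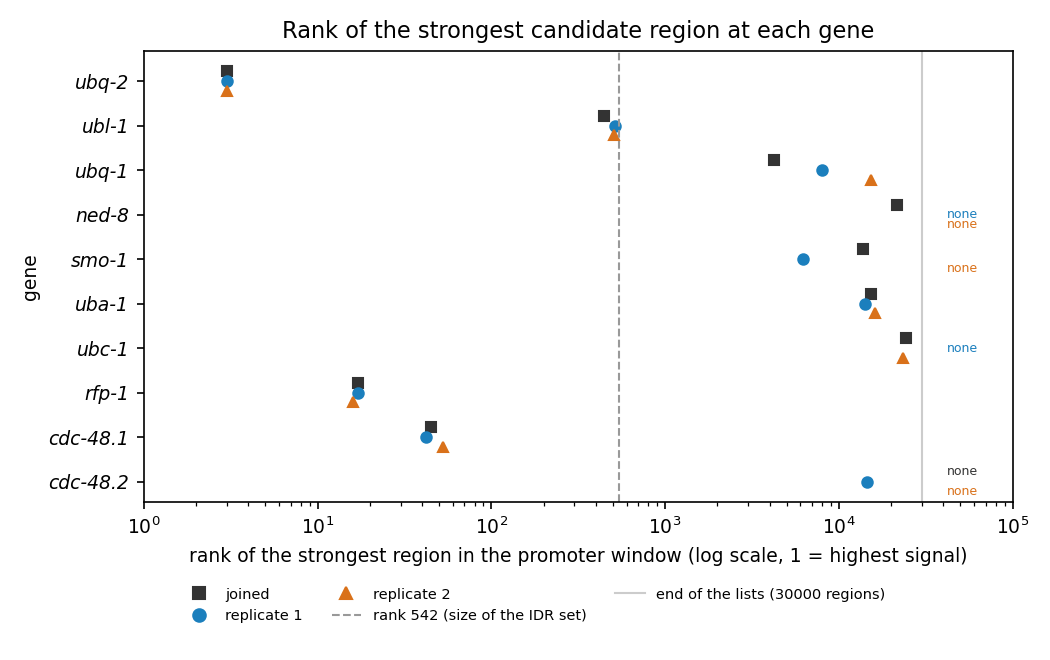
Rank of the strongest candidate region in the promoter window of each gene, on a log axis where 1 is the highest signal, in the joined list (squares), replicate 1 (circles) and replicate 2 (triangles); "none" marks a list with no region in the window. The 4 genes with an IDR peak lie left of rank 542 in every list, and ubq-1, ned-8, smo-1, uba-1, ubc-1 and cdc-48.2 lie right of it at rank 4216 or beyond.

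The same 4 genes were found in each replicate alone. The joined list pools the reads of both, and the genes were chosen with these lists in view, so this is a description. Among the 542 regions of highest signal, replicate 1 gave a summit at 4 of the 10 genes, against 3.46% of all genes, and replicate 2 at 4 of 10, against 2.77%. Rank 4216 was the best among the other 6 genes in the joined list, so no gene was near the limit of the IDR set from outside. From inside, ubl-1 was near the limit of 542, at rank 512 in replicate 1 and 509 in replicate 2. Summits near the edge of the window were weak. The closest inside were those of uba-1, 50 and 51 bp from the edge (signals 10.5 in replicate 1 and 13.96 in the joined list), and of cdc-48.2, at 77 bp. The closest outside were a region of ubq-2 in replicate 2, 34 bp beyond the edge (signal 7.24), one of smo-1 in replicate 2, 58 bp beyond (5.45), and one of ned-8 in replicate 2, 152 bp beyond (7.56).

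**Figure D4:**
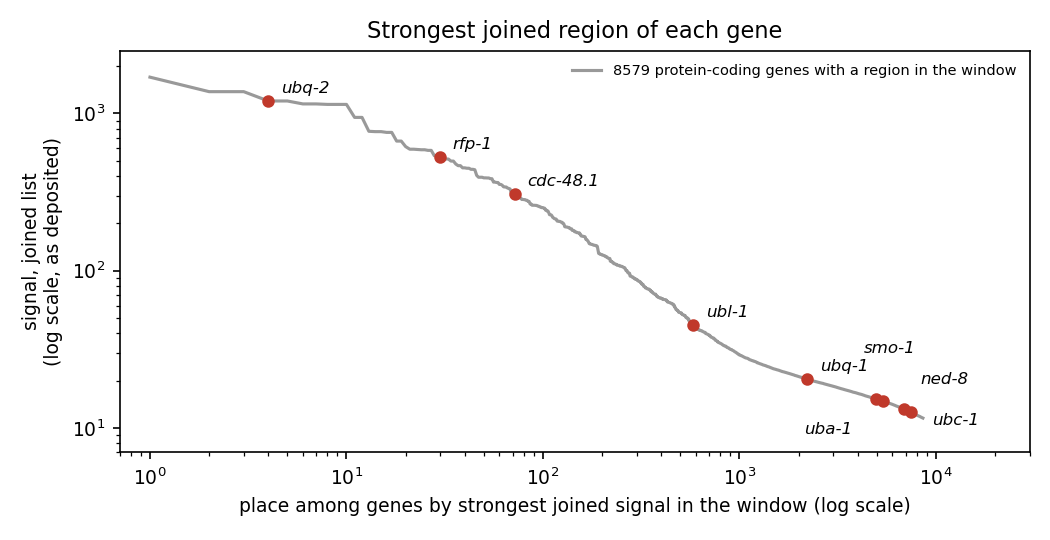
Strongest joined signal in the promoter window (y, log scale) against the gene's place among the 8579 protein-coding genes that have a region there (x, log scale), with the genes examined in red. The line falls steeply up to ubl-1 at place 583 and flattens below, where ubq-1 stands at place 2218 and ubc-1 at 7468; cdc-48.2 has no joined region and is not drawn.

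All 4 IDR summits lay upstream, 170 to 484 bp from the gene's own 5′ end, while over all 694 genes with an IDR summit the median was 208.5 bp upstream. The summits of the replicates were 14 bp apart at ubq-2, 16 bp at rfp-1, 21 bp at cdc-48.1 and 47 bp at ubl-1. The median over 528 IDR peaks found in both replicates was 21 bp. A pair of the 4, ubq-2 and rfp-1, shared the peak with another protein-coding gene, as did 480 of the 694 genes with an IDR summit (69.2%). When each IDR summit was given to the gene with the nearest 5′ end, ubl-1 and cdc-48.1 kept theirs (2 of 10 genes, against 2.23% of all genes), and the peaks of ubq-2 and rfp-1 went to frg-1 and R05D3.8.

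A set of 4 words that led earlier work on these same summits was searched on both strands. They were the word ACGCGC, the word GACGCA, the word CGTAAA and the longer CGTAAATC, which contains the third. Since the 4 peaks were among the summits that gave the words, their presence is a description. CGTAAATC lay in the windows of ubq-2 and rfp-1, on the strand of the gene in both. Its centre was 20.5 bp upstream of the summit at ubq-2 and 44.5 bp upstream at rfp-1. Both summits lie nearer to the divergent genes frg-1 and R05D3.8, for which the word is on the opposite strand. CGTAAATC was in 20.8% of 542 IDR summit windows, against 0.708% of 29784 promoter windows. These promoter windows have the same length and are centred 172 bp upstream of each annotated 5′ end. The shares for the other words were 19.4% against 2.40% for ACGCGC, 17.5% against 3.45% for GACGCA, and 28.04% against 4.84% for CGTAAA. The words ACGCGC and GACGCA were in none of the 5 windows shown, and the windows of ubl-1, cdc-48.1 and ubq-1 held none of the 4 words.

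In the whole promoter windows, CGTAAATC occurred at ubq-2 and rfp-1 and at none of the other 8 genes. It was in the windows of 32.1% of genes with an IDR summit, against 6.90% of all protein-coding genes. ACGCGC, in 34.0% and 18.2% of the same sets, occurred at ubq-1, ned-8, smo-1 and cdc-48.2, all of them without an IDR summit. At ubq-1 its matches lay 161 and 350 bp from the nearest joined summit. The word GACGCA, in 39.5% of genes with an IDR summit and 28.5% of all, occurred at ubq-1, ned-8, uba-1 and rfp-1. CGTAAA, in 64.8% and 43.9%, occurred at ubq-2, uba-1, ubc-1, rfp-1 and cdc-48.1. A match is a description of the letters and not a site of binding.

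A search for words of 8 bases shared among the 4 windows, chosen after the sequences were seen, gave these further matches. The windows of ubq-2 and rfp-1 shared GGTCTCGC (GCGAGACC on the other strand) and CCGTCTCT. GGTCTCGC lay in 8.30% of IDR windows, against 0.581% of promoter windows, and CCGTCTCT in 1.48%, against 0.302%. CGTAAATC and GGTCTCGC stood together in 23 of 542 IDR windows (4.24%), those of ubq-2 and rfp-1 included, against 13 of 29784 promoter windows (0.0436%). The windows of ubq-2 and ubl-1 shared TACGGTAG, centred 2.5 bp from the summit at ubq-2 and 1.5 bp at ubl-1, in 2.03% of IDR windows, against 0.635% of promoters. The words shared by ubl-1 and cdc-48.1, runs such as AAAAGTGT and GTTGAAAA, were no more common in IDR windows (0.738% to 1.66%) than in promoters (1.15% to 2.84%). The GC content was 52.5% at ubq-2, 45.5% at rfp-1, 44.6% at ubl-1, 42.6% at cdc-48.1 and 39.6% at ubq-1. It averaged 45.8% ± 7.78 over IDR windows and 34.7% ± 8.44 over promoter windows (SD over windows), so the backgrounds of the words differ in base composition.

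The wider ubiquitin system was read from 9 lists of 141 genes, the 10 genes included. Of the 141, 15 had an IDR summit (10.6%), and of the 131 others 11 did (8.40%), beside 3.47% of all protein-coding genes. A joined region of any height lay at 76 of these 131 (58.0%), with a median strongest signal of 18.9, beside 43% and 16.2 for all genes. These lists were written with earlier results of these data known, so the shares are a description and were not tested.

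The 11 further genes came from several of the lists, with few from any list and none from the SUMO enzymes. Whether they favour any step of the system was not tested. The highest was ubql-1, which encodes ubiquilin, a carrier of ubiquitinated proteins to the proteasome (joined signal 261, rank 55; 201 in replicate 1 and 62.1 in replicate 2). Its summit lay 491 bp upstream, and pdi-3 had the same peak in its window. Next came genes of the NEDD8 cycle. The peak of rfl-1, the catalytic subunit of the NEDD8 E1, had a signal of 214 (rank 74; 146 and 63.0 in replicates 1 and 2) and lay also in the window of col-8. That of csn-5, the subunit of the COP9 signalosome that removes NEDD8 from cullins, had 148 (rank 120; 118 and 31.4). The gene of the modifier itself, ned-8, had 13.2.

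The remaining 8 had joined signals from 40.1 to 67.8. They were ufd-3, a CDC-48 cofactor (67.8), the ligase genes wwp-1 (63.1) and rnf-121 (54.3), cul-4, a cullin (50.5), uba-5, the E1 of the modifier UFM1 (47.7), the E2 gene ubc-7 (47.2), usp-39, a splicing factor of the ubiquitin protease family (41.0), and duo-3, annotated as a ubiquitin hydrolase (40.1). The peak of rnf-121 lay also in the window of C16C10.4, whose 5′ end was nearer to it, and that of uba-5 also in the window of clec-53. The replicates ranked some of these peaks far apart, in either direction. The peak of wwp-1 was at rank 236 in replicate 1 and 5611 in replicate 2, that of cul-4 at 368 and 8424, and that of duo-3 at 1507 and 301. Both replicates held 5 of the 11 peaks among their 542 strongest. The same share over all IDR peaks is not given here, so neither this count nor the rank gaps can be read as particular to these genes. By list, 3 of 18 CDC-48 and cofactor genes had an IDR summit, 3 of 34 ligases outside the cullin list, 2 of 8 E1 genes, 2 of 11 modifiers, 2 of 11 genes of the NEDD8 cycle, 2 of 22 deubiquitinases, 1 of 12 cullin genes, 1 of 25 E2 genes and 0 of 8 SUMO enzymes. A gene can be in more than one list, as rfl-1 is. The CDC-48 list counts ubql-1, and the deubiquitinase list counts usp-39. Over all protein-coding genes the share was 3.47%, and that of the E2 list (4%) was near it.

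**Figure D5:**
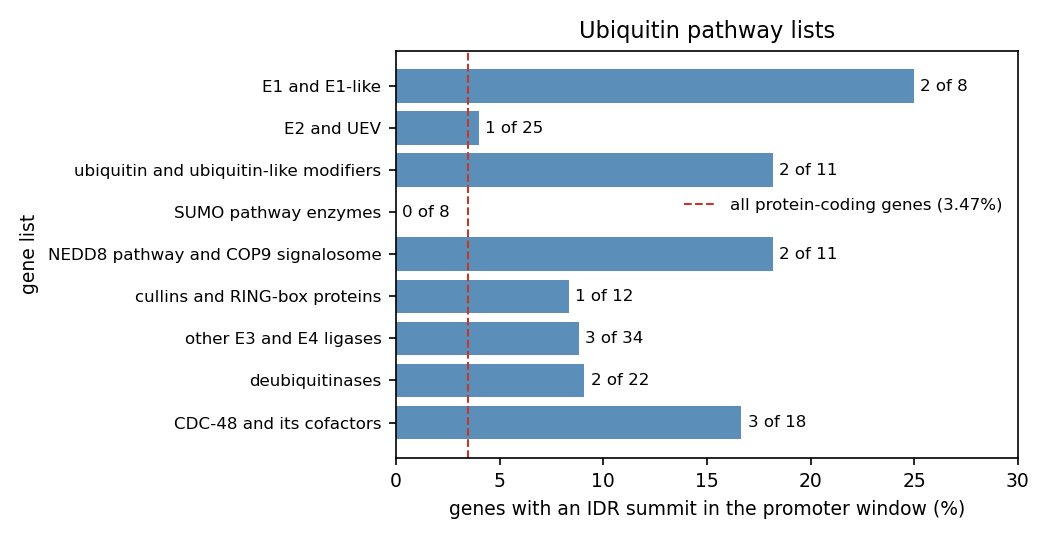
Share of genes with an IDR summit in the promoter window for 9 lists of the ubiquitin system (bars, in percent, with counts), beside 3.47% for all protein-coding genes (dashed line). The lists are short, from 8 to 34 genes, so a single gene moves a bar by several percentage points or more, and the lists were not tested.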

How the data were processed

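Peak lists were deposited for ChIP-seq of eGFP-tagged R02D3.7 in whole L2 larvae (1 group, 2 biological replicates numbered by the labels). The deposited lists are narrowPeak files on ce10 and ce11. The 4 ce11 lists were used, and the 4 ce10 lists were not analysed here. The signal of a region is column 7 of the deposited lists, written by the authors' caller on a scale that no source states. Per the deposited notes, the candidate lists were derived from alignments and a further file, not analysed here, and the IDR list from the candidate lists. The caller and the aligner were not given in the sources used here, and depth per sample is unknown. Nothing in the labels says more of how the replicates were grown.

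Genes came from Ensembl release 115 (29784 5′ ends of 19973 protein-coding genes, mitochondrial genes left out), sequence from RefSeq WBcel235. Coordinates are 1-based. Every joined region lay within the chromosome lengths of that genome. The 542 IDR regions were the 542 joined regions of highest signal. An IDR peak was matched to the overlapping replicate region (1 bp or more) whose summit was closest. An offset is counted from the nearest 5′ end of the gene, or for genes of the lists from the nearest whose window holds the summit. Proteins were translated from the genome and aligned with Biopython 1.88 (BLOSUM62). Python 3.11.15 and NumPy 2.4.6 were used, and window assignment was tested on simulated data. The genes, lists and words were chosen with earlier results of these data known, and no test was made. Of 142 symbols listed, 1 (duo-2) had no gene. Genes named are the 10, those sharing their IDR summits, list genes with an IDR summit, and by likeness of signal the 3 nearest IDR promoter peaks to ubq-2, ubl-1 and ubq-1. Alternatives were other windows, a stricter set, the nearest gene only and each replicate alone.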

Additional observations from a re-analysis of the deposited data

How the results depend on the processing

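The count of genes examined that had an IDR summit (4 of 10) was 4 with windows of 500 bp upstream and of 2000 bp upstream and in each replicate alone, and also 4 among 2 times as many of the highest joined regions, a setting chosen after seeing the data. It was 3 in the top 271 IDR peaks, which lack ubl-1, and 2 when a summit counted for the nearest 5′ end only. Over all lists the count of 15 was 6 in the top 271 peaks, where fewer regions enter, and 12 with the nearest 5′ end only. It was 17 with 2000 bp upstream, and 12 to 17 with 1 replicate. The share of all protein-coding genes was 3.47% in the main setting, 3.46% in replicate 1 and 2.77% in replicate 2. With the nearest 5′ end only it was 2.23%. The share is not given here for the other windows and set sizes, so the counts there have no background beside them. The log2 ratio over ubq-1 ran from 5.78 to 6.09 for ubq-2 and from 1.18 to 1.30 for ubl-1 in single replicates. With 2000 bp upstream it was 5.65 and 0.91 in the joined list, because a stronger region of ubq-1 entered, and in the replicates, a setting chosen after seeing the data, 5.24 and 0.45 in replicate 1 and 5.78 and 1.18 in replicate 2. The offset of the strongest uba-1 region ran from -422 to 150 bp between replicates, which placed it at different sites. No paired analysis was possible because the labels give 1 group. Each candidate list ends at 30000 regions, with a weakest signal of 11.6 in the joined list, 7.74 in replicate 1 and 4.89 in replicate 2. A region absent from a list may lie below that end or may not exist. With depth unknown, these cannot be told apart.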
